A study of Mus musculus with 289 samples.

Results

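The genes followed here take thyroid hormone into a cell, activate it, bind it and respond to it: the transporter Slco1c1, the activating enzyme Dio2, the binding proteins Ttr and Crym, the receptors Thra and Thrb, and the hormone-responsive gene Klf9. They were taken as a named list of 7 genes from the 55487 genes counted in the series. The list was chosen with earlier results of these data known, and all 7 are reported whatever their values. Each had a row in all 5 batch tables. Thyroxine, the form that circulates, enters the brain through membrane transporters. Astrocytes hold the type 2 deiodinase, which turns thyroxine into triiodothyronine, the form that binds the nuclear receptors, and neighbouring neurons take up much of it. The receptors sit on DNA with or without hormone and switch target genes in response to it.

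The cells were single astrocytes drawn by electrophysiology pipette from the cerebral cortex of adult transgenic mice that express Cas9, the enzyme that cuts DNA where a guide RNA (gRNA) directs it. A lentivirus (Mok-LV) made to act in astrocytes delivered gRNAs against the transcription factors Sox9, Trps1 or both ("dual"), or a control gRNA. In batches 2 to 5 the labels of these cells give day 7 or day 21, and in batch 1 they give other days. Each cell became 1 Smart-seq2 library, which reads whole transcripts and has no molecular identifiers. Libraries made from a pipette that went into the tissue without taking a cell served as in-slice controls.

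Batch 1 held 4 dual gRNA cells (days 17 to 20), 10 control gRNA cells (days 8 to 16) and 31 cells with no gRNA. The labelled day of batch 1 runs up by 1 from cell to cell apart from 2 cells of day 8, and whether it is a day of collection cannot be told from the labels. Batch 2 held 8 dual gRNA cells of day 21, 7 control gRNA cells of day 21 and 8 of day 7. Batch 3 had 14 dual gRNA and 21 Sox9 gRNA cells, all of day 7, and 6 cells without gRNA. Batch 4 had 13 dual gRNA and 16 Sox9 gRNA cells, both of day 21, 15 Trps1 gRNA cells of day 7 and 15 control gRNA cells of day 21. In batch 5 there were 30 Trps1 gRNA and 21 Sox9 gRNA cells, all of day 21, beside 23 cells without gRNA. Cells without gRNA are labelled as adult, with no day, and the sources used here do not say if their animals had been injected. No label names an animal, so cells are not replicates: those that share a gRNA, day and batch form 1 pool, values are compared between pools, and there is no test or p-value.

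Astrocyte libraries held 15959 to 4656612 reads in genes (median 1094500), and the 12 in-slice controls 341394 to 2299609. All 12 astrocyte markers examined, among them Slc1a2, Aqp4 and Gja1, were read in every astrocyte pool, and their summed level ran from 1603 CPM (the gene's counts scaled to the total of all reads in genes) in the batch 4 dual gRNA pool to 19113 CPM in the batch 1 dual gRNA pool. The 11 microglia markers summed to 4972 to 11606 CPM in the pools with a gRNA and to 196 to 292 CPM in the 3 pools without. Sox9 itself was not lower in most pools labelled with its gRNA. It stood at 1303 CPM in Sox9 gRNA cells and 1492 CPM in dual gRNA cells, against 382 CPM in cells without gRNA, in batch 3. With dual gRNA it was 1860 against 209 CPM with control gRNA in batch 1. In batch 2 it was 905 CPM with dual gRNA against 491 CPM with control gRNA of day 21. Batch 4 had 189 CPM with Sox9 gRNA and 133 CPM with dual gRNA, against 177 CPM with control gRNA. In batch 5 it was 233 CPM with Sox9 gRNA against 309 CPM without gRNA. Trps1 was 112 CPM with dual gRNA against 4.61 CPM with control gRNA in batch 1. In batch 3 it was 294 CPM with dual gRNA against 109 CPM without gRNA. It was lower with dual gRNA in batch 2 (19.4 against 107 CPM with control gRNA of day 21). With Trps1 gRNA it was lower in batch 5 (57.6 against 91.9 CPM without gRNA). In batch 4 it was 103 CPM with Trps1 gRNA of day 7 and 16.7 CPM with dual gRNA, against 3.35 CPM with control gRNA. Gene counts do not show small edits, so gRNA names below are labels. A pair of libraries in the batch 5 pool without gRNA (replicates 10 and 14) and 1 pair in the batch 4 Trps1 gRNA pool (replicates 13 and 14) correlated at 0.989 and 0.993 on the log2 scale, where the other pairs of these batches reached at most 0.649 and 0.615. Their counts differed by 1.72 and 3.23 times the variance that sampling gives, and whether each pair came from 1 cell cannot be told apart from the counts. Where a call or a Ttr level rests on them, the value with the pair counted once is given too.

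Per kilobase of exon, the scale on which different genes can be compared, the median over the 16 astrocyte pools was 27.9 CPM for Thra, 21.0 for Klf9, 20.5 for Slco1c1, 15.2 for Dio2, 7.06 for Crym, 2.45 for Thrb and 0.0381 for Ttr. Slco1c1 had the widest span of these pools, 0 to 133 CPM per kilobase, and Thra one of 2.89 to 54.2. A read was found in 206 of 242 astrocytes for Thra, 161 for Klf9, 129 for Dio2, 116 for Slco1c1, 105 for Thrb, 55 for Crym and 34 for Ttr.

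Slco1c1, the organic anion transporter that carries thyroxine into brain cells (ENSMUSG00000030235, chromosome 6, 141524368 to 141570177, plus strand, GRCm38), was called lower with a gRNA than without in all 5 comparisons that allow it, although the batch 3 Sox9 gRNA call was lost under some settings. In batch 5 the pooled level was 179 CPM (95% Poisson interval 173 to 186) in Sox9 gRNA cells and 143 CPM (139 to 148) in Trps1 gRNA cells, against 690 CPM (678 to 703) in cells without gRNA. Single cells had a lowest, median and highest level of 0, 18.6 and 1100 CPM with Sox9 gRNA, 0, 0 and 1258 CPM with Trps1 gRNA, and 0, 636 and 3410 CPM without gRNA. The ranges overlapped, but the middle of the cells without gRNA lay far above that of either gRNA pool. The log2 ratios, taken after adding 5 CPM to each pool, were -1.92 for Sox9 gRNA and -2.23 for Trps1 gRNA. Intervals cover counting error only and leave out the variation between cells and animals. A pooled level also cannot tell fewer cells with the transcript from less of it per cell.

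The share of cells with a Slco1c1 read moved the same way in batch 5: 12 of 21 Sox9 gRNA cells (57.1%, exact binomial interval 34.0 to 78.2%) and 11 of 30 Trps1 gRNA cells (36.7%, 19.9 to 56.1%), against 21 of 23 cells without gRNA (91.3%, 72.0 to 98.9%). With every cell thinned to 100000 reads these shares were 57.1%, 33.3% and 82.6% in the same order of pools. In batch 3 Slco1c1 stood at 110 CPM in Sox9 gRNA cells and 37.6 CPM in dual gRNA cells, against 269 CPM in cells without gRNA. That last pool held 6 cells with a median of 236508 reads, 3 of which had a Slco1c1 read. A single cell held 1540474 of the pool's 3297698 reads, so it weighs most in every pooled level there. For Slco1c1, Dio2 and Thra the highest cell was another, with 5.07%, 4.43% and 2.27% of the gene's reads. Leaving out the highest cell thus kept the deepest cell in for these genes. The share with a read was 12 of 21 Sox9 gRNA cells and 4 of 14 dual gRNA cells, against these 3 of 6, so for Sox9 gRNA it was not lower. The Sox9 gRNA call of that batch was lost among cells with 100000 or more reads, where the log2 ratio was -1.24 with all such cells, and with the cells named 7S alone (-0.94). In batch 1 the level was 10.6 CPM in control gRNA cells, of which 5 of 10 had a read, against 517 CPM in cells without gRNA, of which 24 of 31 had one. The log2 ratio of that comparison was -5.07, the lowest value of any member in the 12 comparisons made. Single control gRNA cells had a lowest, median and highest level of 0, 0.305 and 84.0 CPM, against 0, 225 and 2268 CPM without gRNA, so the highest control gRNA cell lay under the median cell without gRNA.

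Among the gRNA pools Slco1c1 had no single order. In batch 1 the 4 dual gRNA cells held 0, 8.97, 917 and 890 CPM, a pooled 574 CPM against 10.6 CPM in control gRNA cells, so 2 of the 4 cells carried nearly all of it. In batch 4 it was 102.7 CPM in Sox9 gRNA cells against 7.09 CPM in control gRNA cells (log2 ratio 3.16), while none of the 13 dual gRNA cells had a read, where 3 reads in the pool would have been 0.179 CPM. By counted reads alone the dual gRNA pool was thus at least 39.6-fold lower than control in that batch, but both pools lay under the 20 CPM asked of a call. Most of the Sox9 gRNA level came from 1 cell with 976 CPM, and without each pool's highest cell the levels were 44.3 and 4.15 CPM. The 10 Sox9 gRNA cells named 21S2 had 141 CPM, with a read in 4, and the 6 named 21S had 36.8 CPM, all from 1 cell, so with 21S alone the call was lost (log2 ratio 1.79). In batch 2 control gRNA cells had 14.9 CPM at day 21, all from 1 of 7 cells, against 187 CPM at day 7, where 7 of 8 cells had a read. In-slice controls had a read in 2 of 12 libraries, at 26.4 and 1.35 CPM.

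Dio2, the type 2 deiodinase (ENSMUSG00000007682, chromosome 12, 90724552 to 90738438, minus strand), was lower with a gRNA in 4 of the same 5 comparisons. In batch 5 Trps1 gRNA cells pooled to 120 CPM (116 to 124) against 476 CPM (465.6 to 486.0) in cells without gRNA, a log2 ratio of -1.94. That call was lost by the mean of single-cell CPM (-0.75) and with the Trps1 gRNA cells named 21T alone (-0.37). The Sox9 gRNA cells of that batch pooled to 296 CPM, a log2 ratio of -0.68 that did not reach the fold asked. Their lowest, median and highest cells were at 0, 130 and 1784 CPM, against 0, 299 and 1605 CPM without gRNA, so these ranges covered each other almost fully. Trps1 gRNA cells ran from 0 through a median of 0 to 4807 CPM, with a read in 14 of 30 cells against 20 of 23. The gene shares 100 exonic bases with the antisense gene Gm26512, which had at most 355 reads in a batch.

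In batch 3 Dio2 fell to 57.01 CPM in Sox9 gRNA cells and 108 CPM in dual gRNA cells, against 328 CPM in cells without gRNA, with log2 ratios of -2.43 and -1.56. The dual gRNA level rested on few cells: 1 of them held 63.6% of the reads, and the level without it was 42.4 CPM. With the dual gRNA cells named 7ST2 alone neither Dio2 nor Thrb was called. The Sox9 gRNA cells of batch 3 split by title series, with 91.5 CPM in the 13 cells named 7S and 0.352 CPM in the 8 named 7S2. In batch 1 it was 82.0 CPM in control gRNA cells against 423 CPM without gRNA, with a read in 4 of 10 against 29 of 31 cells. The lowest, median and highest cells were at 0, 0 and 485 CPM with control gRNA and at 0, 194 and 2335 CPM without. The 4 dual gRNA cells of batch 1 had 0.695, 100, 0 and 0 CPM.

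Dual gRNA pools had the lowest Dio2 of their batch wherever control gRNA cells were sequenced beside them. At day 21 these were 9.55 CPM against 114 CPM with control gRNA in batch 4 (log2 ratio -3.03) and 8.83 CPM against 65.4 CPM in batch 2 (-2.35). In batch 1 they were 10.5 CPM against 82.0 CPM (-2.49), but these pools share no labelled day, so gRNA and day cannot be told apart there. A read was found in 2 of 13 dual gRNA cells against 7 of 15 control gRNA cells in batch 4, in 1 of 8 against 3 of 7 in batch 2, and in 2 of 4 against 4 of 10 in batch 1. The astrocyte markers did not move alike in the 3 batches: they summed to 1603 against 7000 CPM in batch 4, 13145 against 7011 CPM in batch 2 and 19113 against 6281 CPM in batch 1. Their part in the Dio2 differences of these batches was not tested. The in-slice controls held Dio2 in 1 of 12 libraries, at 889 CPM, in a batch 5 library whose astrocyte markers summed to 2105 CPM.

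**Figure D1:**
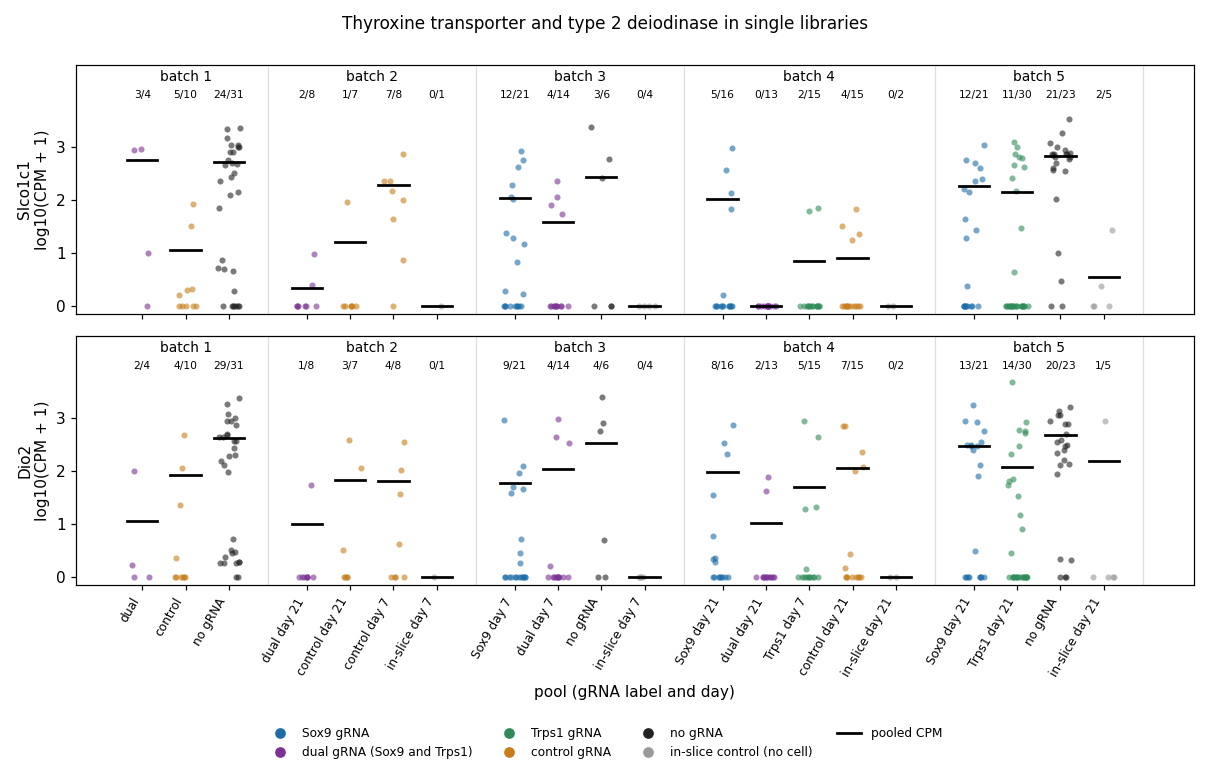
Each point is 1 library, coloured by gRNA label, at log10(CPM + 1) of Slco1c1 (top) or Dio2 (bottom); black bars give the pooled CPM on the same scale and the numbers above give libraries with a read of all libraries. The cells without gRNA in batches 1 and 5 have a read in 24 of 31 and 21 of 23 cells for Slco1c1 and in 29 of 31 and 20 of 23 for Dio2.

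Slco1c1 and Dio2 were read in the same cell in 9 of 21 Sox9 gRNA cells and 6 of 30 Trps1 gRNA cells of batch 5, against 19 of 23 cells without gRNA. In batch 1 both had a read in 2 of 10 control gRNA cells, against 23 of 31 cells without gRNA, and in batch 3 in 7 of 21 Sox9 gRNA cells and 1 of 14 dual gRNA cells, against 3 of 6. Among the 5 members read in at least 25% of astrocytes, Slco1c1 and Dio2 were the most alike pair across cells, with a mean within-batch Spearman correlation of 0.39 (0.22 to 0.49 over the 5 batches, 242 cells). Cells of a batch share library chemistry and differ in depth, which enters every such value. The genes most like Dio2 among the 3339 genes compared were Bcan, a proteoglycan core protein (0.52), Ttyh1, a chloride channel family member (0.48), and Slc1a2, the glial glutamate transporter (0.48). Those most like Slco1c1 were Slc27a1, a fatty acid transport protein (0.48), Fgfr3, a fibroblast growth factor receptor (0.46), and F3, tissue factor (0.46).

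**Figure D2:**
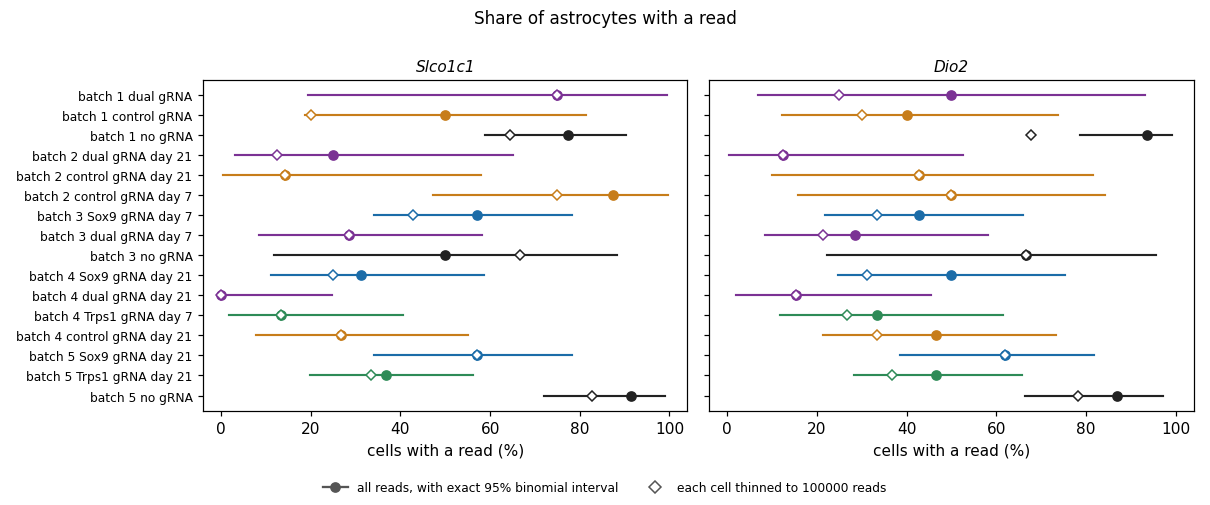
Share of astrocytes with at least 1 read of Slco1c1 (left) and Dio2 (right) in each pool; filled points use all reads, lines are exact 95% binomial intervals and open diamonds use each cell thinned to 100000 reads. In batch 5 Slco1c1 lies at 57.1% (Sox9 gRNA) and 36.7% (Trps1 gRNA), against 91.3% without gRNA, and Dio2 at 61.9% and 46.7%, against 87.0%.

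The stretches just before the RefSeq transcription starts of Dio2 and Slco1c1, and of Klf9, which also differed between cells with and without gRNA, are shown because these genes were lower together in batches 3 and 1. Each is 250 bases of GRCm38.p6, 5′ to 3′ on the gene's strand: chr12:90739039-90739288 minus for Dio2, chr6:141524104-141524353 plus for Slco1c1 and chr19:23140976-23141225 plus for Klf9. Capitals mark matches, on either strand, to ACAAAG and ACAAT (cores bound by SOX proteins), TGACGTCA (the cAMP response element), AGGTCA (the nuclear receptor half-site) and AGATAA (the GATA core). No match overlaps another in these windows, and none held AGGTCA or AGATAA.
Dio2: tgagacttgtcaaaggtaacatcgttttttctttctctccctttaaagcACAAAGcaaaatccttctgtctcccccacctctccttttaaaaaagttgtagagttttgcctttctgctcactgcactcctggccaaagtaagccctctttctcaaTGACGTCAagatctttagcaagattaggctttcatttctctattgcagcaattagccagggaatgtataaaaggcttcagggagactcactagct
Slco1c1: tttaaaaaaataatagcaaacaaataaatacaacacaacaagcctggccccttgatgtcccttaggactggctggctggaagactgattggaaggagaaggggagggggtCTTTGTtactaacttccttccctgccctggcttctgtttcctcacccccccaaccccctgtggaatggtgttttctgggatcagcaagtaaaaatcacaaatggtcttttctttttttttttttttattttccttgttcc
Klf9: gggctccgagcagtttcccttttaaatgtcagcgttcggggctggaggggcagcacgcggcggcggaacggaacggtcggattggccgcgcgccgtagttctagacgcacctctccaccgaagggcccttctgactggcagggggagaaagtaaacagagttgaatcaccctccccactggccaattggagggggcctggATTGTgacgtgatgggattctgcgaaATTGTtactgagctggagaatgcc
Dio2 held ACAAAG beginning 201 bases and TGACGTCA beginning 95 bases before the start. Slco1c1 held ACAAAG on the opposite strand, 140 bases before the start, and Klf9 held ACAAT on the opposite strand 50 and 24 bases before it. Among all 32851 RefSeq windows of that length, 16.5% held ACAAAG, 27.7% ACAAT, 1.55% TGACGTCA, 14.02% AGGTCA and 9.99% AGATAA. A Thrb window that is not shown (chr14:17660710-17660959 plus) held AGGTCA beginning 184 bases before its start. A match is a description of letters and shows no binding.

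Ttr encodes transthyretin, which carries thyroxine in blood and cerebrospinal fluid (ENSMUSG00000061808, chromosome 18). It was read in 34 of 242 astrocytes, nearly all in batches 4 and 5: the batch 3 Sox9 gRNA pool held 0.566 CPM and the other pools of batches 1 to 3 at most 0.0905 CPM. In batch 5 the level was 28.3 CPM in Sox9 gRNA cells, with a read in 5 of 21, and 8.31 CPM in Trps1 gRNA cells, with a read in 4 of 30, against 113 CPM without gRNA, with a read in 12 of 23. The highest cells stood at 601 CPM and 142 CPM, against 820 CPM without gRNA, and the medians at 0 and 0, against 1.07 CPM. The log2 ratios were -1.83 and -3.15. The near-identical pair held the 2 highest values of the pool without gRNA, 820 and 785 CPM. With that pair counted once the pool stood at 75.8 CPM, or 38.2 CPM without its highest cell. The Trps1 gRNA pool was still lower past the fold (log2 ratio -2.60). The Sox9 gRNA pool was not: its ratio was -1.28 with all cells, but without the highest cells the levels were 20.9 against 38.2 CPM.

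Within that pool the reads followed the title series of the cells: 9 of the 12 cells named 2AG had a read, at a pooled 183 CPM, and 3 of the 11 named AG, at 27.7 CPM. With the near-identical pair counted once, 8 of 11 cells named 2AG had a read, at 120 CPM. Of the 10 cells without gRNA at 20 CPM or more of Ttr, 2 had a read of any of the 7 choroid plexus markers counted in that batch, at 1.35 CPM at most. Choroid plexus is the tissue best known for Ttr. In batch 4 Ttr was 54.1 CPM in Sox9 gRNA cells, with a read in 6 of 16, against 3.08 CPM in control gRNA cells, with a read in 2 of 15. All 6 of those Sox9 gRNA cells were among the 10 named 21S2, and the 6 named 21S had no read. One cell held 76.7% of the reads, at 662 CPM. The choroid plexus markers reached 107 CPM in 1 of the 4 Sox9 gRNA cells at 20 CPM or more of Ttr, and summed to 13.7 CPM in the Sox9 gRNA pool and 13.2 CPM in the control pool. In-slice controls had a Ttr read in 1 of 12 libraries, at 1.35 CPM.

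Crym encodes mu-crystallin, which binds triiodothyronine in the cytosol (ENSMUSG00000030905, chromosome 7, 120186380 to 120202111, minus strand). Control gRNA cells of batch 1 had 125 CPM, with a read in 4 of 10, against none in 31 cells without gRNA, where 3 reads in the pool would be 0.0941 CPM, so the level was at least 1328-fold higher. One cell held 69.2% of the reads of the control gRNA pool, and without it the level was 43.2 CPM, at least 459-fold higher. Dual gRNA cells of batch 3 had 120 CPM, with a read in 4 of 14, against none in 6 cells without gRNA, where 3 reads would be 0.910 CPM, so it was at least 132-fold higher. Without the highest cell it was 22.5 CPM, at least 24.7-fold higher, and with the cells named 7ST2 alone, of which 1 of 7 had a read, it was not called. The highest cell was at 781 CPM in the batch 1 pool and 1288 CPM in the batch 3 pool, and the median cell of each was at 0. In batch 3 Sox9 gRNA cells had 8.29 CPM, with a read in 4 of 21. In batch 5 Sox9 gRNA cells were lower, at 5.97 CPM (log2 ratio -1.53), and Trps1 gRNA cells higher, at 89.1 CPM (1.57), against 26.6 CPM in cells without gRNA, where 9 of 23 had a read. The Sox9 gRNA call was lost with the cells without gRNA named AG alone (log2 ratio 0.35). The Trps1 gRNA call was lost by the mean of single-cell CPM (0.87), with the cells named 21T3 alone (0.69) and with the cells without gRNA named 2AG alone (0.89). None of the 4 dual gRNA cells of batch 1 had a read, at least 227-fold lower than the control gRNA pool, or at least 78.4-fold without the highest control cell. The bounds given for Crym rest on counted reads alone and leave out the variation between cells. The exact binomial interval for these 0 of 4 cells reaches 60.2%.

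Crym came from few cells in every pool. In batch 2 control gRNA cells of day 21, 1 of 7 cells held 1538 CPM and 99.9% of the pool's reads, and the pool held 276 CPM with it and 0.490 CPM without it. In batch 4 Sox9 gRNA cells 1 of 16 likewise held 513 CPM, and the pool 37.0 CPM with it and 0.185 CPM without it. Of 242 astrocytes 55 had a read and 35 had 20 CPM or more. In-slice controls had a read in 3 of 12 libraries, at most 32.0 CPM.

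**Figure D3:**
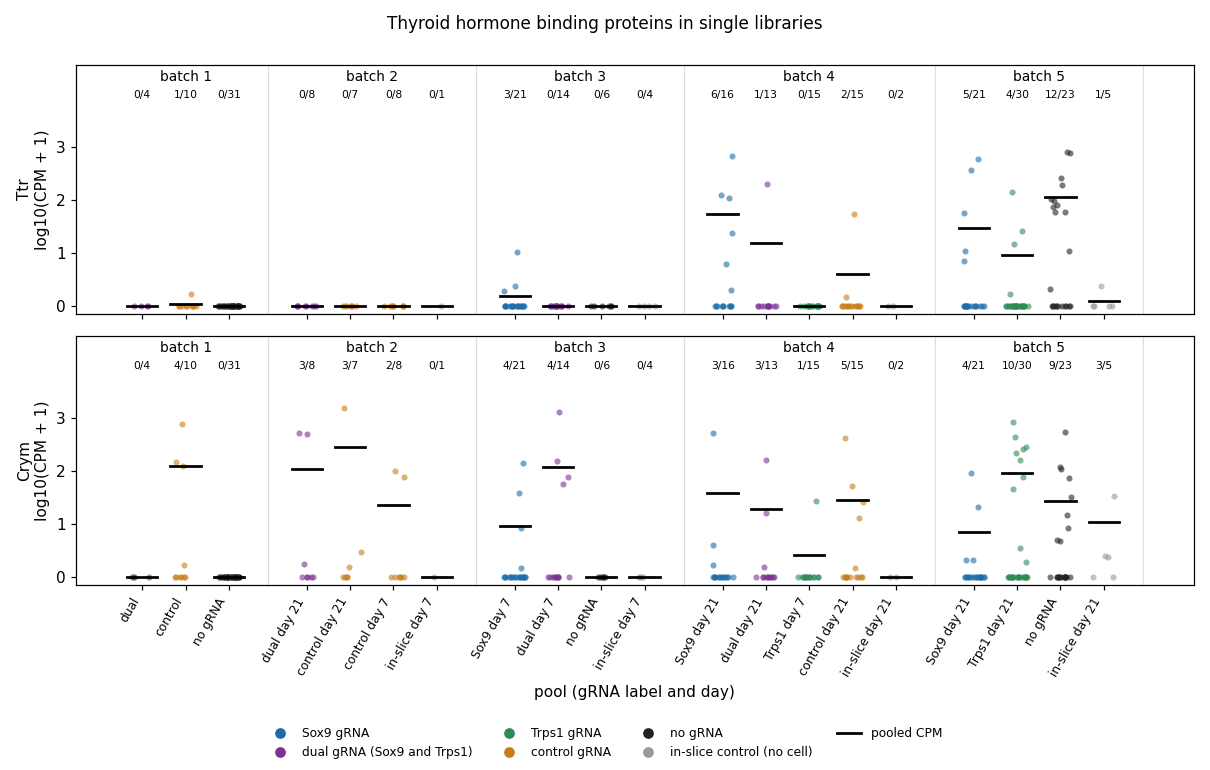
Libraries as points at log10(CPM + 1) of Ttr (top) and Crym (bottom), by batch and gRNA label, with the pooled CPM as a black bar and libraries with a read of all libraries above. Ttr is read in 12 of 23 cells without gRNA in batch 5 and 6 of 16 Sox9 gRNA cells in batch 4; Crym is absent from the 31 and 6 cells without gRNA of batches 1 and 3.

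Thra, the receptor that predominates in brain (ENSMUSG00000058756, chromosome 11, 98740638 to 98769006, plus strand), was the member read most widely, in 206 of 242 astrocytes. Pools ran from 13.3 CPM in batch 3 cells without gRNA to 250 CPM in batch 3 dual gRNA cells, with a median pool at 129 CPM. It was higher with a gRNA past the fold in batch 3 and not in batches 5 and 1. It stood at 147 CPM in Sox9 gRNA cells and 250 CPM in dual gRNA cells, against 13.3 CPM without gRNA. In batch 5 the values were 131 CPM and 191 CPM, against 116 CPM without gRNA, and in batch 1 158 CPM with control gRNA against 171 CPM without. Single cells held 65.2% of the reads in batch 1 control gRNA, 50.9% in batch 5 Sox9 gRNA and 61.5% in batch 3 dual gRNA. Without each pool's highest cell, batch 1 had 60.3 against 152 CPM (log2 ratio -1.27). Batch 5 then had 68.4 CPM (Sox9 gRNA) and 166 CPM (Trps1 gRNA) against 102 CPM, and batch 3 dual gRNA 108 against 13.1 CPM. With the batch 5 cells without gRNA named AG alone, Thra was called higher with Trps1 gRNA (log2 ratio 1.04). In batch 4 it was lower in dual gRNA cells, at 27.8 CPM, and in Trps1 gRNA cells of day 7, at 38.5 CPM, against 114 CPM in control gRNA cells of day 21.

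The Thra values carry 2 limits. The gene shares 263 exonic bases with Nr1d1, which lies on the opposite strand and was read 16700 to 42701 times per batch, and the sources used here do not state whether counting used strand, so reads of the shared stretch cannot be told apart. The counts are also per gene, so the isoform that does not bind hormone is not told apart from the one that does. Of the 12 in-slice controls 10 had a Thra read. The 5 of batch 5 held 217, 770, 2.00, 1011 and 479 CPM, a pooled 439 CPM that exceeded all 3 cell pools of the batch. Neuron markers summed to 1981 to 32854 CPM in these 5 libraries, and Syp, which encodes a synaptic vesicle protein (0.46), and 1700020I14Rik (0.46) were among the genes most like Thra across astrocytes. The part of RNA from outside the cell in the Thra values was not tested.

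Thrb, the second receptor (ENSMUSG00000021779, chromosome 14, 17660261 to 18038090, plus strand), lay lower per length of transcript. Its median pool was 2.45 CPM per kilobase of exon against 27.9 for Thra, and 105 of 242 astrocytes had a read. In batch 5 it was 58.8 CPM in Sox9 gRNA cells and 116 CPM in Trps1 gRNA cells, against 25.9 CPM without gRNA (log2 ratios 1.04 and 1.97). Lowest, median and highest cells were at 0, 0 and 408 CPM and at 0, 4.16 and 1178 CPM, against 0, 2.40 and 197 CPM. The Sox9 gRNA level came from fewer cells, 7 of 21 against 13 of 23, and its ratio fell to 0.98 with the near-identical pair counted once, since that pair had no Thrb read. The Trps1 gRNA level differed by title series, with 252 CPM in the cells named 21T, 145 CPM in 21T2 and 33.8 CPM in 21T3, or 3.30 CPM in 21T3 without its highest cell. With 21T3 alone Thrb was not called (log2 ratio 0.33). In batch 3 it was 115 CPM in Sox9 gRNA cells and 63.3 CPM in dual gRNA cells, against 2.43 CPM without gRNA, where 2 of 6 cells had a read. Batch 1 went the other way, with 26.6 CPM in control gRNA cells against 81.9 CPM without gRNA, and a read in 4 of 10 against 11 of 31 cells. In batch 2 control gRNA cells it was 3.55 CPM at day 21 against 75.4 CPM at day 7, where 1 cell held 93.9% of the reads, and that call was lost by the mean of single-cell CPM. Of 12 in-slice controls 3 had a read, at 61.8 to 150 CPM.

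Thrb was seldom read without Thra: of the 105 astrocytes with a Thrb read, 3 had no Thra read. Their mean within-batch correlation across cells was 0.32 (0.19 to 0.46). Thrb was most like Rbfox1, a splicing regulator of neurons (0.40), Clip1, a microtubule plus-end protein (0.39), and Ppig, a peptidyl-prolyl isomerase (0.39).

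Klf9, a transcription factor induced by thyroid hormone and by glucocorticoids (ENSMUSG00000033863, chromosome 19, 23141226 to 23168134, plus strand), fell with a gRNA in batches 3 and 1 but not in batch 5. It was 139 CPM in Sox9 gRNA cells and 134 CPM in dual gRNA cells, against 456 CPM without gRNA in batch 3 (log2 ratios -1.68 and -1.73). A single cell held 61.0% of the Klf9 reads of that pool without gRNA, which had 333 CPM without it. Lowest, median and highest cells were at 0, 117 and 831 CPM and at 0, 73.4 and 492 CPM, against 0, 354 and 595 CPM, so the ranges overlapped. A read was found in 19 of 21 and 9 of 14 cells, against 4 of 6, so the share of Sox9 gRNA cells was not lower, and by the mean of single-cell CPM the Sox9 gRNA call was lost (log2 ratio -0.67). In batch 1 it was 122 CPM with control gRNA against 364 CPM without (-1.53), with 6 of 10 against 25 of 31 cells having a read. In batch 5 it was 84.2 CPM and 142 CPM, against 91.3 CPM without gRNA, and a read was found in 13 of 21 and 21 of 30, against 17 of 23 cells. With the Trps1 gRNA cells named 21T alone it was called lower there too (log2 ratio -1.63). Against control gRNA in batch 4 it was lower in Sox9 gRNA cells, at 27.9 CPM, and dual gRNA cells, at 25.3 CPM, than the 89.7 CPM of control cells, while the share of cells with a read was 7 of 16 and 7 of 13 against 7 of 15. In batch 2 control gRNA cells it was 25.04 CPM at day 21 against 90.7 CPM at day 7. There 1 cell held 97.1% of the day 21 reads, and without each pool's highest cell the levels were 0.836 and 47.9 CPM. The share of cells with a read was not lower, 5 of 7 at day 21 against 4 of 8 at day 7. With pooled CPM of all cells Klf9 was called higher in none of the 12 comparisons. It was called higher in batch 2 dual gRNA against control gRNA when pools were scaled by size factors, and in batch 5 Sox9 gRNA against Trps1 gRNA with the Trps1 cells named 21T alone (log2 ratio 1.52). Both batch 4 calls were lost under size factors and by the mean of single-cell CPM. Klf9 was most like Hes1, a Notch target (0.35), Usp2, a deubiquitinating enzyme (0.35), and Tnik, a kinase (0.35), and 6 of 12 in-slice controls had a read, at most 31.9 CPM.

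**Figure D4:**
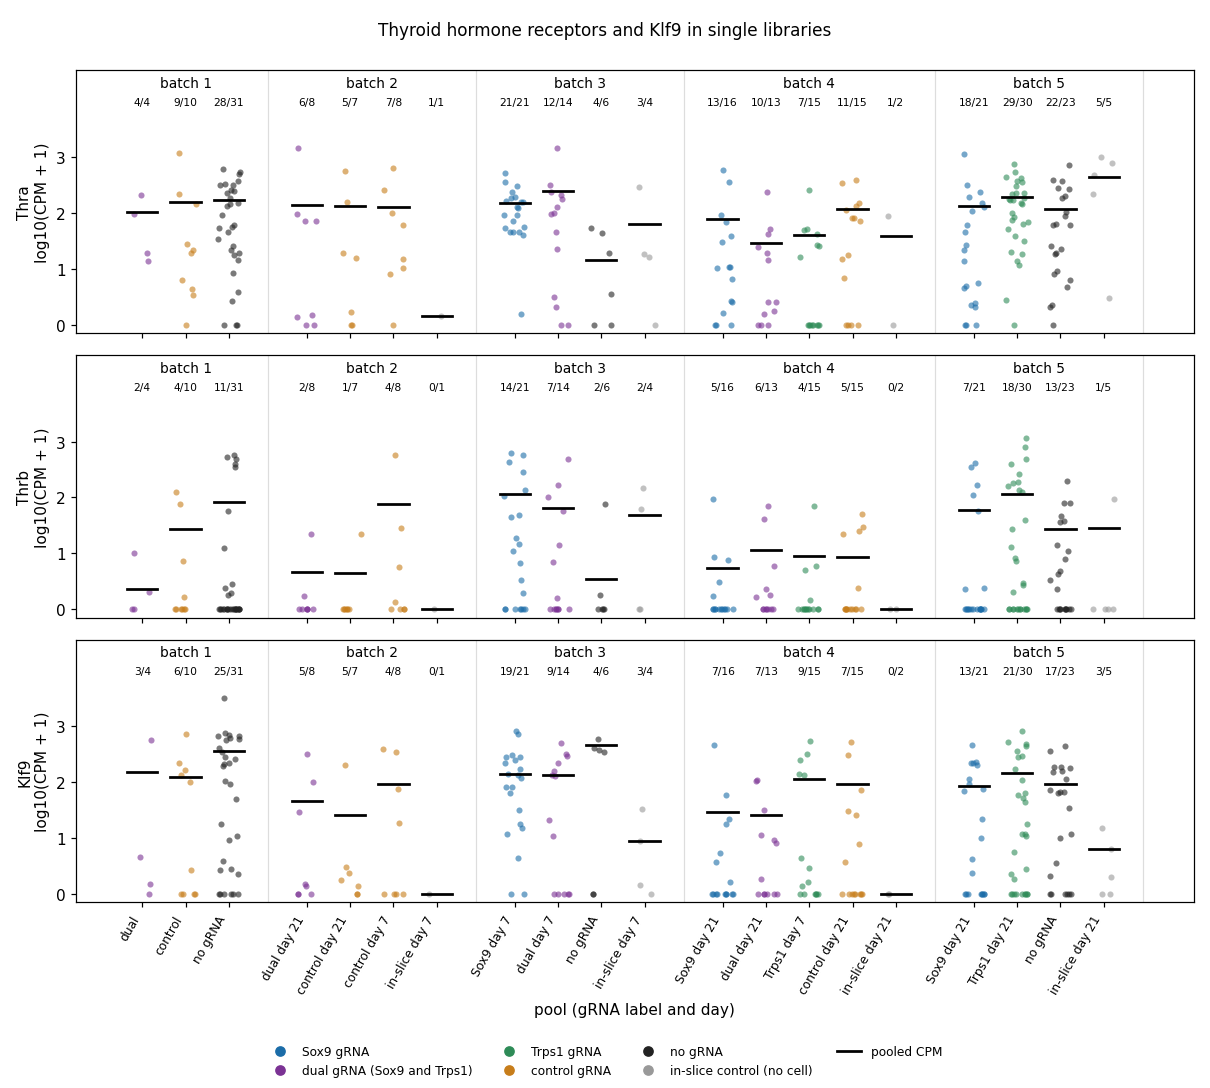
Libraries as points at log10(CPM + 1) of Thra (top), Thrb (middle) and Klf9 (bottom), by batch and gRNA label, with the pooled CPM as a black bar and libraries with a read of all libraries above. Thra is read in most libraries, in-slice controls included (5 of 5 in batch 5), and the highest pooled Klf9 levels are those of the cells without gRNA in batch 3 (456 CPM) and batch 1 (364 CPM).

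Per comparison, a member was called when the higher pool reached 20 CPM and the log2 ratio passed 1 both with all cells and without each pool's highest cell. Cells with a gRNA were set against those without in 5 comparisons, which share their pool without gRNA within batches 5 and 3. At 20 CPM stood 7 members in each batch 5 comparison, 5 (Sox9 gRNA) and 6 (dual gRNA) in batch 3, and 6 in batch 1. In batch 5 Sox9 gRNA, 1 member was higher (Thrb; 18.5% of all genes at that level were) and 3 were lower (Slco1c1, Ttr and Crym; 16.9% of genes). With the near-identical pair counted once, Slco1c1 and Crym alone were called, and with the cells without gRNA named AG alone, Slco1c1 alone. In batch 5 Trps1 gRNA, 2 were higher (Thrb and Crym; 25.1% of genes) and 3 lower (Dio2, Slco1c1 and Ttr; 10.8% of genes). In batch 3 Sox9 gRNA, 2 were higher (Thra and Thrb; 58.2% of genes) and 3 lower (Dio2, Slco1c1 and Klf9; 4.35% of genes). In batch 3 dual gRNA, 3 were higher (Thra, Thrb and Crym; 50.4% of genes) and the same 3 lower (6.81% of genes). In batch 1 control gRNA, 1 was higher (Crym; 24.9% of genes) and 4 were lower (Dio2, Slco1c1, Thrb and Klf9; 23.2% of genes).

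The share of genes higher was lopsided in batch 3, where the median gene had a log2 ratio of 1.69 with Sox9 gRNA and 1.75 with dual gRNA. Beside it, the log2 ratios of Thra and Thrb were 3.05 and 4.02 with Sox9 gRNA and 3.80 and 3.20 with dual gRNA. Of the members at 20 CPM there, 2 of 5 with Sox9 gRNA and 3 of 6 with dual gRNA were higher, which is not above the share of all genes. The 3 of 5 and 3 of 6 lower stand beside 4.35% and 6.81% of genes. Microglia markers moved with these comparisons: they summed to 9143 and 6798 CPM in the Sox9 and Trps1 gRNA cells of batch 5 against 196 CPM without gRNA, to 8639 and 6126 CPM in batch 3 against 284 CPM, and to 9530 CPM in batch 1 against 292 CPM. Astrocyte markers summed to 13616 and 17720 CPM against 14915 CPM in batch 5, to 14045 and 6754 CPM against 12993 CPM in batch 3, and to 6281 CPM against 13791 CPM in batch 1. The part of astrocyte content and of microglial RNA in the member calls was not tested.

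Scaling pools by median-of-ratios size factors instead of total reads moved the median gene, and with it the split of all genes. With batch 5 Trps1 gRNA 1311 genes were then higher and 1455 lower, against 2134 and 919 by CPM, and with batch 1 control gRNA 1435 and 2625, against 2031 and 1891. With batch 3 Sox9 gRNA they were 3030 and 876, against 4733 and 354, and with batch 3 dual gRNA 2878 and 1030, against 3936 and 532. The members called in these 4 comparisons were the same under both scalings, and with batch 5 Sox9 gRNA Thrb was no longer called higher.

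Among pools with a gRNA, Dio2 was the member called most often. The batch 4 comparisons share their control gRNA pool, and the batch 2 and batch 1 comparisons share a control gRNA pool within each batch. Against control gRNA, members at 20 CPM numbered 6 for batch 4 Sox9 gRNA and for batch 1 dual gRNA. They numbered 4 for batch 4 dual and Trps1 gRNA and for batch 2 dual gRNA. For batch 2 control gRNA of day 21 against day 7 there were 6, and for batch 5 Sox9 against Trps1 gRNA 7. In batch 4 Sox9 gRNA against control gRNA at day 21, 2 members were higher (Slco1c1 and Ttr; 12.4% of genes) and 1 lower (Klf9; 28.7% of genes). Other markers moved with that comparison. Red cell markers summed to 9715 CPM with Sox9 gRNA against 42.1 CPM with control gRNA (5 of 5 called higher), and pericyte, smooth muscle and fibroblast markers to 196 against 9.07 CPM. Oligodendrocyte markers summed to 395 against 3448 CPM (5 of 8 called lower), neuron markers to 880 against 2232 CPM (5 of 9 at 20 CPM lower), microglia markers to 5473 against 10127 CPM (5 of 11 lower) and astrocyte markers to 8438 against 7000 CPM. Their part in the member calls was not tested. In batch 4 dual gRNA against control gRNA, none was higher (11.6% of genes) and 3 were lower (Dio2, Thra and Klf9; 25.5% of genes). In batch 2 dual gRNA against control gRNA at day 21, none was higher (15.1% of genes) and Dio2 alone was lower (19% of genes). In batch 1 dual gRNA against control gRNA, 1 was higher (Slco1c1; 6.36% of genes) and 3 were lower (Dio2, Thrb and Crym; 39.2% of genes), with 4 cells on the dual side and, as said, no labelled day in common. Size factors gave 1402 genes higher and 1282 lower for batch 4 Sox9 gRNA against 872 and 2015 by CPM, and 1033 and 1269 for batch 4 dual gRNA against 779 and 1720 by CPM, and Klf9 was then called in neither. In batch 5 Sox9 gRNA against Trps1 gRNA, 2 were higher (Dio2 and Ttr; 9.82% of genes) and 1 lower (Crym; 23.2% of genes), the same members as under size factors, where 1196 genes were higher and 1305 lower against 849 and 2003 by CPM.

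For batch 5 Sox9 gRNA against Trps1 gRNA, Dio2 stood at 296 against 120 CPM, with a read in 13 of 21 against 14 of 30 cells. The 9 Trps1 gRNA cells named 21T had 368 CPM, above the Sox9 gRNA pool, and the 10 named 21T2 and 11 named 21T3 had 51.0 and 72.2 CPM. The Dio2 call was lost with 21T alone and by the mean of single-cell CPM (log2 ratio 0.11), and the Ttr call with 21T2 alone. The comparisons across days complete the set. In batch 4 Trps1 gRNA of day 7 against control gRNA of day 21, none was higher (18.9% of genes) and 2 were lower (Dio2 and Thra, beside 22.5% of genes). These pools differ in both gRNA and day, which cannot be told apart. Dio2 was no longer called there with the near-identical pair counted once (log2 ratio -0.96) or by the mean of single-cell CPM (-0.45). In batch 2 control gRNA of day 21 against day 7, none was higher (12.7% of genes) and 3 were lower (Slco1c1, Thrb and Klf9, beside 27.5% of genes). Astrocyte markers summed to 3019 against 7000 CPM in this batch 4 comparison (2 of 12 called higher, 6 lower). In this batch 2 comparison they summed to 7011 against 11415 CPM (1 of 12 called higher, 4 lower). Their part in these member calls was not tested. Over the 12 comparisons, 14 of the 68 pairs of member and comparison at 20 CPM were higher (22.4% of all genes were) and 30 were lower (20.3% of all genes). These pairs are not independent, since comparisons share pools, and the members were chosen with earlier results of these data known. The totals are therefore a description and no test of the list. Dio2 was called lower in 8 and higher in 1, Slco1c1 lower in 6 and higher in 2, Klf9 lower in 6, Thra lower in 2 and higher in 2, Thrb lower in 3 and higher in 4, Ttr lower in 2 and higher in 2, and Crym lower in 3 and higher in 3.

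**Figure D5:**
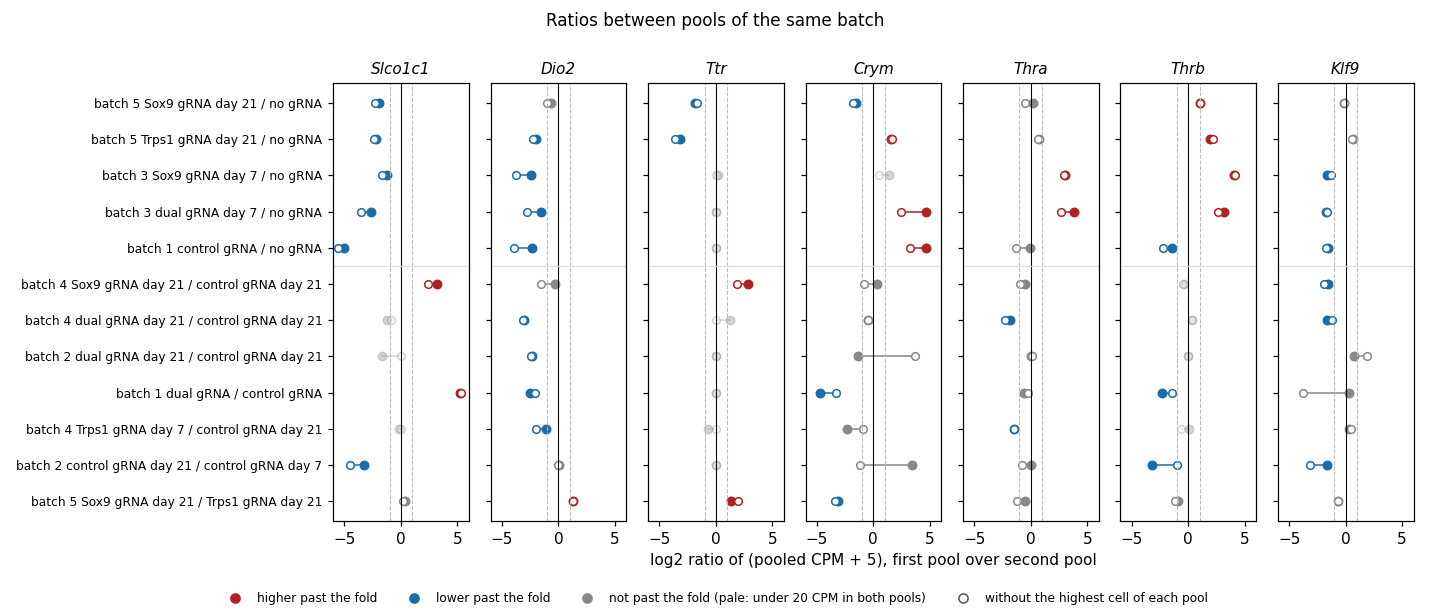
Log2 ratio of (pooled CPM + 5) of each member in 12 comparisons within a batch, first pool over second pool; filled points use all cells, open points leave out the highest cell of each pool, and dashed lines mark a log2 ratio of 1 in either direction. Slco1c1 is below -1 in the upper 5 comparisons, which set a gRNA against none, and Dio2 is below -1 in the 3 comparisons of dual with control gRNA.

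Other genes of the same pathway were counted from 4 lists. The counts stand beside 18.5 to 58.2% of all genes higher and 4.35 to 23.2% lower in the 5 comparisons of a gRNA with none. Of the other thyroid hormone transporters and turnover genes (17 listed, 8 to 10 at 20 CPM), 2 to 7 were higher and 0 or 1 lower in these 5. The 7 of 10 higher were those of batch 3 Sox9 gRNA, where 58.2% of all genes were higher. Slco2b1, an organic anion transporter, was called higher in all 5. It stood at 131 CPM in Sox9 gRNA and 26.9 CPM in Trps1 gRNA cells of batch 5, at 77.4 CPM in Sox9 gRNA and 224 CPM in dual gRNA cells of batch 3, and at 73.9 CPM in control gRNA cells of batch 1, against no read in the 23, 6 and 31 cells without gRNA of these batches. Few cells carried it: 7 of 21 and 4 of 30 in batch 5, 7 of 21 and 4 of 14 in batch 3, and 3 of 10 in batch 1. Slc7a8, a subunit of an amino acid exchanger that also moves iodothyronines, was higher in 4 of the 5, for instance 57.4 CPM in Sox9 gRNA cells of batch 5 against 1.65 CPM without gRNA. Wsb1 and Usp33, a ubiquitin ligase subunit and a deubiquitinase that act on the deiodinase, were higher in both batch 3 comparisons and not in batch 5. Slco2b1 moved opposite to Slco1c1 in these 5 comparisons, beside the microglia markers given above.

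Of the 13 receptor partners and cofactors, 10 to 12 were at 20 CPM, with 0 to 3 higher and 2 to 6 lower in these 5. The 6 of 10 lower were those of batch 1 control gRNA, where 23.2% of all genes were lower. Ncoa2, a coactivator of nuclear receptors, was lower in all 5, at 29.97 CPM in Sox9 gRNA and 9.22 CPM in Trps1 gRNA cells of batch 5 against 97.5 CPM without gRNA. In batch 3, where 2 of 6 cells without gRNA carried it, it was 10.1 and 3.51 CPM against 267 CPM, and in batch 1 25.1 against 77.3 CPM. Ncoa3, a second coactivator, was lower in batch 3 and higher in batch 5 Sox9 gRNA, at 112 against 18.4 CPM. Hdac3, the deacetylase of the corepressor complex, was called in none of the 5. Nr1d1, a circadian repressor, was higher in batch 3 Sox9 gRNA and lower in batch 1, and shares bases with Thra as given above.

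Of 13 genes known to answer to thyroid hormone in brain, 6 to 9 were at 20 CPM and 0 to 4 were higher and 0 to 3 lower in the same comparisons, beside the shares of all genes given above. The lowest median log2 ratio was -0.80 with batch 5 Sox9 gRNA, where the median of all genes was 0.14, and the highest 2.66 with batch 3 Sox9 gRNA, where that of all genes was 1.69. Aldh1a1, a retinaldehyde dehydrogenase, was higher with Trps1 gRNA in batch 5 (77.7 against 10.1 CPM) and with control gRNA in batch 1 (41.3 against 1.13 CPM). Dbp, a clock output factor, was higher with Trps1 gRNA in batch 5 (56.6 against 15.7 CPM) and lower with dual gRNA in batch 3 (38.5 against 117 CPM). Nrgn, a neuronal calmodulin-binding protein that is also on the neuron marker list, was lower with Sox9 gRNA in batch 5 (86.5 against 180 CPM) and higher in both batch 3 comparisons. Mbp, a myelin protein that is also an oligodendrocyte marker, was higher with Sox9 gRNA in batch 3 (2281 against 241 CPM).

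Glucocorticoid-responsive genes were listed because Klf9 answers to both hormones. Of 8, 4 to 7 were at 20 CPM, with 2 to 4 higher and 1 to 3 lower, beside the same shares of all genes. Per1, a clock gene, was lower in all 5, at 196 CPM in Sox9 gRNA and 46.97 CPM in Trps1 gRNA cells of batch 5, against 498 CPM without gRNA. In batch 3 it was 95.2 and 74.9 CPM against 2115 CPM, and in batch 1 53.1 against 513 CPM. Nfkbia, the inhibitor of NF-kappaB, was higher in all 5, for instance 400 and 336 CPM in batch 5 against 165 CPM without gRNA. Sgk1, a kinase, was lower in batch 3 and higher in batches 5 and 1. Tsc22d3, the glucocorticoid-induced leucine zipper gene, was lower in batch 1, higher with Sox9 gRNA in batch 3 and not called in batch 5.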

How the data were processed

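Single-cell Smart-seq2 libraries of 242 astrocytes and 12 in-slice controls were analysed; 35 labelled samples of batch 4 were not analysed here. The authors deposited 5 batch tables of read counts per gene, without normalisation, and the submitters' processing notes name STAR 2.6.0a, RSEM 1.3.0 and the builds GRCm38 and mm10, without roles. The sources used here do not state whether counting used strand. Of 55487 gene IDs in batch 1, 55141 had a symbol. Rows naming no gene held 75.6% of counts in batch 1, 22.3% in batch 2 and under 1% in the other batches, and stayed out of library totals.

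Counts were summed per pool and given as CPM with exact Poisson intervals (95%), and shares of cells with exact Clopper-Pearson intervals. Batches were never mixed in a ratio. A gene was past the fold at 20 CPM in the higher pool and a log2 ratio of CPM + 5 of 1 or more in either direction, with all cells and without its highest cell in each pool; the same rule over all genes gave the background. Pools without a read were given a floor of 3 counts, and a fold taken from it bounds a difference between pooled counts, not between conditions. The fold rule was tested on simulated data.

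All members were named whatever their values. From each further list, at most 4 genes past the fold in the most comparisons were named, ties going to the larger mean log2 ratio, and for likeness the 3 genes with the highest mean within-batch correlation, of which 1 is not reported here. The members and lists were chosen with earlier results of these data known. Alternatives were a pseudocount of 1 CPM, no filter on level, the highest cell kept, median-of-ratios size factors, totals without mitochondrial genes, means of single-cell CPM, cells with 100000 or more reads or thinned to that number, single title series, and near-identical libraries counted once, the last chosen after seeing the data, as were the lower bounds of a fold without the highest cell. Python 3.11.15, NumPy 2.4.6, pandas 2.3.3, SciPy 1.17.1 and Matplotlib 3.10.9 were used.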

Additional observations from a re-analysis of the deposited data

Results flagged for a closer look

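In pools of 4 to 10 libraries, 40 combinations of gene and pool were examined for a library far from the others, and 13 were found. Chance marks about 1 in 20 groups, but a pool in which most libraries have no read is marked easily. The 13 found can therefore not be held against that rate. The highest library was taken for each gene by itself and may differ between genes. In batch 2 control gRNA cells of day 21 the highest library stood apart for Slco1c1 (88.8 CPM), Thrb (21.1 CPM), Crym (1538 CPM) and Klf9 (205 CPM). In batch 2 dual gRNA cells it did so for Dio2 (53.7 CPM) and Thrb (21.4 CPM). The highest of the 4 dual gRNA cells of batch 1 stood apart for Dio2, at 100.46 CPM, and the highest of the 6 batch 3 cells without gRNA for Thrb, at 74.4 CPM. Among the 5 in-slice controls of batch 5 the highest stood apart for Dio2 (889 CPM, replicate 1) and Slco1c1 (26.4 CPM, replicate 2). It also did so for Thrb (92.6 CPM) and Crym (32.0 CPM), both in replicate 5. The lowest stood apart for Thra (2.00 CPM, replicate 3).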

How the results depend on the processing

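Of the recounts of members past the fold, 96 stayed within 1.5 times the value reported and 8 did not. These tallies compare the number of members and not which they are. In batch 4 Sox9 gRNA with the cells named 21S alone, Thra and Klf9 were lower and none was higher, and this counts as stayed. Only the batch 3 pool without gRNA had cells under 100000 reads. Asking for that many reads could therefore change no count and no log2 ratio in the other batches. With near-identical libraries counted once, batch 5 Sox9 gRNA against no gRNA gave 2 members in place of 4, and batch 4 Trps1 gRNA against control gRNA gave 1 in place of 2. With the batch 5 cells named AG alone as the pool without gRNA, Sox9 gRNA gave 1 member, and Ttr (log2 ratio 0.024) and Crym (0.35) changed sign. Batch 5 Trps1 gRNA against no gRNA gave 3 in place of 5 both by the mean of single-cell CPM and with the cells named 21T3 alone. Batch 3 dual gRNA against no gRNA gave 3 in place of 6 with the cells named 7ST2 alone. Batch 2 dual gRNA against control gRNA gave 2 in place of 1 both with size factors and with the highest cell kept. Ttr changed sign in batch 4 Sox9 gRNA against control gRNA with the cells named 21S alone (-0.69), where no cell had a read, as did Dio2 in batch 5 Sox9 gRNA against Trps1 gRNA with the cells named 21T alone (-0.31). The cause was not tested. Of the recomputed log2 ratios 324 moved by less than their counting interval, 232 by more, and 4 changed sign. Of the shares of cells on thinning, 101 stayed within their interval and 11 did not.

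With the highest cell kept, genes past the fold numbered 1834 higher and 2783 lower in batch 4 Sox9 gRNA against control gRNA (872 and 2015 without it), 1343 and 2612 in batch 4 dual gRNA (779 and 1720), 2434 and 2417 in batch 4 Trps1 gRNA (1385 and 1648), 2145 and 2894 in batch 2 dual gRNA (1026 and 1291), 2399 and 2801 in batch 2 control gRNA of day 21 against day 7 (951 and 2059), and 2131 and 4092 in batch 1 dual gRNA against control gRNA (469 and 2892). No paired analysis was possible because each pool is 1 sample, no result comes from a test, and a replicate number only names a cell. Cells per pool, 4 to 31, and reads held by single cells limit these values, and in the batch 3 pool without gRNA 3 of 6 cells had under 100000 reads.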
